A study of Sus scrofa with 3 samples.

Results

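The genes described here code for the proteins of the cytosolic ribosome, measured in pig kidney. They are the rows typed as mRNA whose name is an RPL or RPS symbol or RPSA, with the S6 kinases (RPS6K names) left out. The rule took 69 of the 34570 rows of the count table, of which 22826 are typed as mRNA. It gave 43 proteins of the large subunit and 26 of the small subunit. The pigs were male Wuzhishan pigs, a Chinese miniature breed, 6 to 7 months old, and every group ate a diet high in fat and cholesterol. One group was castrated and received testosterone (CMT), one was castrated only (CM) and one was left intact (IM). No group on an ordinary diet was analysed here, and the sources used here do not state the testosterone dose or the time since castration. RNA of 3 pigs per group was mixed into 1 library, so 3 libraries stand for 9 pigs. No spread between pigs can be estimated, no p-value is given, and every difference is one between pools.

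A ribosome is built from ribosomal RNA and about one copy of each of these proteins, so their genes are usually expressed together. Their mRNAs are short and abundant and begin with a run of pyrimidines, the terminal oligopyrimidine tract. Through that tract the kinase complex mTORC1 and the RNA-binding protein LARP1 control their translation and stability. In mice, growth of the remaining kidney after loss of the other is known to need mTORC1 and its substrate S6 kinase. Ribosomal protein genes have many processed copies in mammalian genomes. How reads of such copies were assigned is unknown, and this limit applies to every gene named here.

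Total counts were 13601475 in CMT, 18503537 in CM and 16459771 in IM. Values are CPM, counts scaled to a library of 1000000 with TMM factors, and they are compared between libraries but not between genes, because gene length was not used. All 69 members passed the filter of a mean of 1 scaled CPM, along with 15472 genes in all, and the smallest member count in any library was 60. A fold is a ratio of scaled counts, and its 95% interval in brackets covers counting error only. Calls of higher or lower needed an interval that lay wholly beyond 2-fold. Ribosomal RNA rows took 2.14% of the counts in CMT, 1.73% in CM and 2.03% in IM. The markers of the proximal tubule, the main cell type of the kidney cortex, were present at a summed 32444 scaled CPM in CMT, 25062 in CM and 24802 in IM over 11 genes. The higher sum in CMT came from a minority of them. Only 4 of the 11 had a log2 fold above 0 in CMT against CM, and the median was -0.05.

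Castrated pigs without testosterone had more ribosomal protein mRNA than intact pigs, by a modest amount spread over nearly the whole set. The 69 members together took 3.51% of all counts in CM and 2.85% in IM (exact 95% intervals 3.505 to 3.522 and 2.847 to 2.863). The ratio of their summed scaled counts was 1.21 (1.207 to 1.216), and the median log2 fold over the members was 0.25, against -0.01 over all genes compared. Of the 69 members, 65 had a log2 fold above 0, where 49.3% of all genes did. A ratio above 1.2 was found for 32 members, 46.4% of them, against 21.9% of all genes, and a ratio below the inverse of 1.2 for 2 members, against 22.8% of all genes. The counting interval lay wholly above 1 for 61 members, where 21.2% of all genes did so, and wholly below 1 for 2 members, against 23.2%. The 2-fold rule called 2 members higher, RPL31 and RPS16, or 2.9% against 1.2% of all genes, and 0 lower, against 1.52%. With the libraries thinned to the smallest total, the call of RPS16 was lost and 1 member was called higher. The middle part of the set was narrow, with quartiles of 0.16 and 0.35 on the log2 scale. The counting interval of a typical member reached 0.05 to either side on that scale, so the members differed among themselves by more than counting error.

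**Figure D1:**
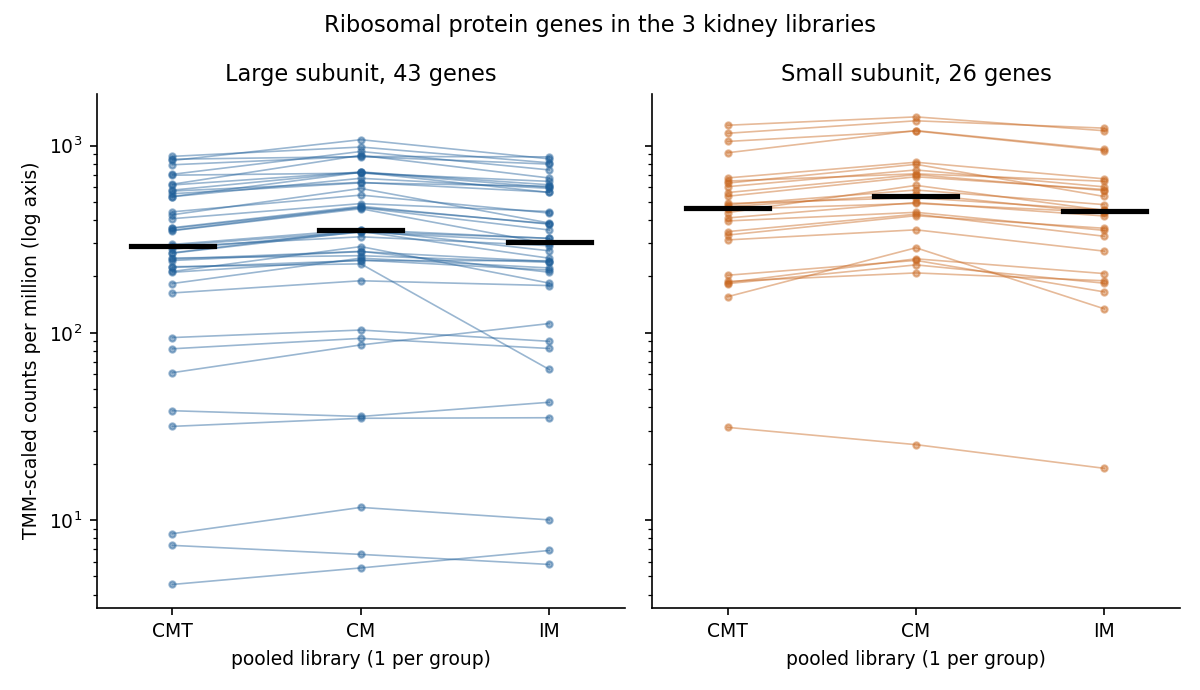
Scaled CPM (log axis) of each ribosomal protein gene in the CMT, CM and IM libraries, with the 43 large subunit genes on the left and the 26 small subunit genes on the right. Thin lines join the values of 1 gene and thick bars are medians, which are 292, 355 and 307 CPM for the large subunit and 464, 539 and 445 CPM for the small subunit in CMT, CM and IM. The vertical position of a gene also depends on its length, so only the change along a line is compared.

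RPL14 and RPL17 were among the 5 members with the highest ratios of CM to IM, besides RPL31 and RPS16. RPL14, a protein of the large subunit, had 289 scaled CPM in CM and 184 in IM, a ratio of 1.57 (1.499 to 1.64). RPL17, which lines the tunnel through which the new peptide leaves, had 590 in CM and 386 in IM, a ratio of 1.53 (1.48 to 1.58). Neither passed the 2-fold rule, yet each interval lay above the median ratio of the members, 1.19. RPS27 had 794 scaled CPM in CM and 535 in IM, with a ratio of 1.48 (1.45 to 1.52).

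At the other end, RPL13A and RPL38 of the large subunit had ratios of CM to IM close to 1. RPL13A, one of the 3 large subunit members with most counts, also leaves the ribosome in human myeloid cells to silence inflammatory mRNAs. It had 874.5 scaled CPM in CM and 870.5 in IM, a ratio of 1.005 (0.982 to 1.03). RPL38, which mouse embryos need for normal translation of Hox mRNAs, had 243.3 in CM and 242.7 in IM, a ratio of 1.003 (0.961 to 1.05). Other members with many counts had intervals wholly above 1. RPSA, also known as the laminin receptor precursor, had 1356 in CM and 1239 in IM, a ratio of 1.09 (1.07 to 1.11). RPL19 had 1075 in CM and 849 in IM, and RPS20 had 1196 in CM and 941 in IM, each with a ratio of 1.27. RPL3, which sits near the catalytic centre, gave 1.21 (1.19 to 1.24). The intervals of RPL13A and RPL38 spanned 1. So did those of RPL3L, RPL22L1, RPL26L1 and RPL36A, which had at most 661 counts in any library.

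Castrated pigs given testosterone had less ribosomal protein mRNA than castrated pigs without it, again across nearly all members. This comparison uses the same CM library as the one above, so the 2 sets of ratios are not independent. The members took 2.78% of the counts in CMT (2.773 to 2.79) and 3.51% in CM. The ratio of summed scaled counts was 0.831 (0.828 to 0.835), and the median log2 fold was -0.26, against 0.00 over all genes compared. A log2 fold below 0 was found for 66 of 69 members, where 50.7% of all genes had one. A ratio below the inverse of 1.2 was found for 36 members, or 52.2%, against 23% of all genes, and one above 1.2 for 1 member, against 21.9%. The interval lay wholly below 1 for 61 members, against 20.4% of all genes, and wholly above 1 for 1 member, against 21.3%. The 2-fold rule called 0 members in either direction, where it called 1.84% of all genes higher and 1.11% lower.

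Members with the lowest ratios of CMT to CM came from both subunits. RPS16 had 156 scaled CPM in CMT and 285 in CM, a ratio of 0.548 (0.521 to 0.577), which did not pass the 2-fold rule. RPL5, which carries the 5S ribosomal RNA into the large subunit, had 622 in CMT and 887 in CM, a ratio of 0.701 (0.682 to 0.72). RPL15 stood at 0.711 (0.653 to 0.774), RPS9, a protein near the mRNA entry channel, at 0.715 (0.693 to 0.738) and RPL17 at 0.724 (0.701 to 0.747). The only 3 members above 0 on the log2 scale were RPS21, RPL22L1 and RPL7L1. RPS21 had 31.3 scaled CPM in CMT and 25.3 in CM, a ratio of 1.24 (1.08 to 1.41). The intervals of RPL22L1 (0.848 to 1.47) and RPL7L1 (0.955 to 1.21) spanned 1. Close to 1 were also RPL35A at 0.972 (0.93 to 1.02) and RPLP2 at 0.975 (0.949 to 1.001).

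Between castrated pigs given testosterone and intact pigs the set as a whole hardly differed. The members took 2.78% of the counts in CMT and 2.85% in IM, and the ratio of summed scaled counts was 1.007 (1.003 to 1.012). The median log2 fold was -0.01, the same as over all genes compared. Of the 69 members 30 had a log2 fold above 0, or 43.5% against 48.2% of all genes, and 39 had one below 0, or 56.5% against 51.8%. A ratio above 1.2 was found for 4 members, RPL31, RPS21, RPL22L1 and RPS23, against 18.8% of all genes. A ratio below the inverse of 1.2 was found for 4 others, RPL15, RPL3L, RPL27 and RPL27A, against 20.2%. The interval lay wholly above 1 for 22 members, against 17.8% of all genes, and wholly below 1 for 23, against 17.5%. RPL31 was the only member called, in the higher direction, where the rule called 0.905% of all genes higher and 0.595% lower. RPS23, which helps to check codon pairing at the decoding site, had 203 scaled CPM in CMT and 165 in IM, a ratio of 1.23 (1.16 to 1.29). RPL27, of the large subunit, had 183 in CMT and 222 in IM, a ratio of 0.826 (0.784 to 0.87).

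**Figure D2:**
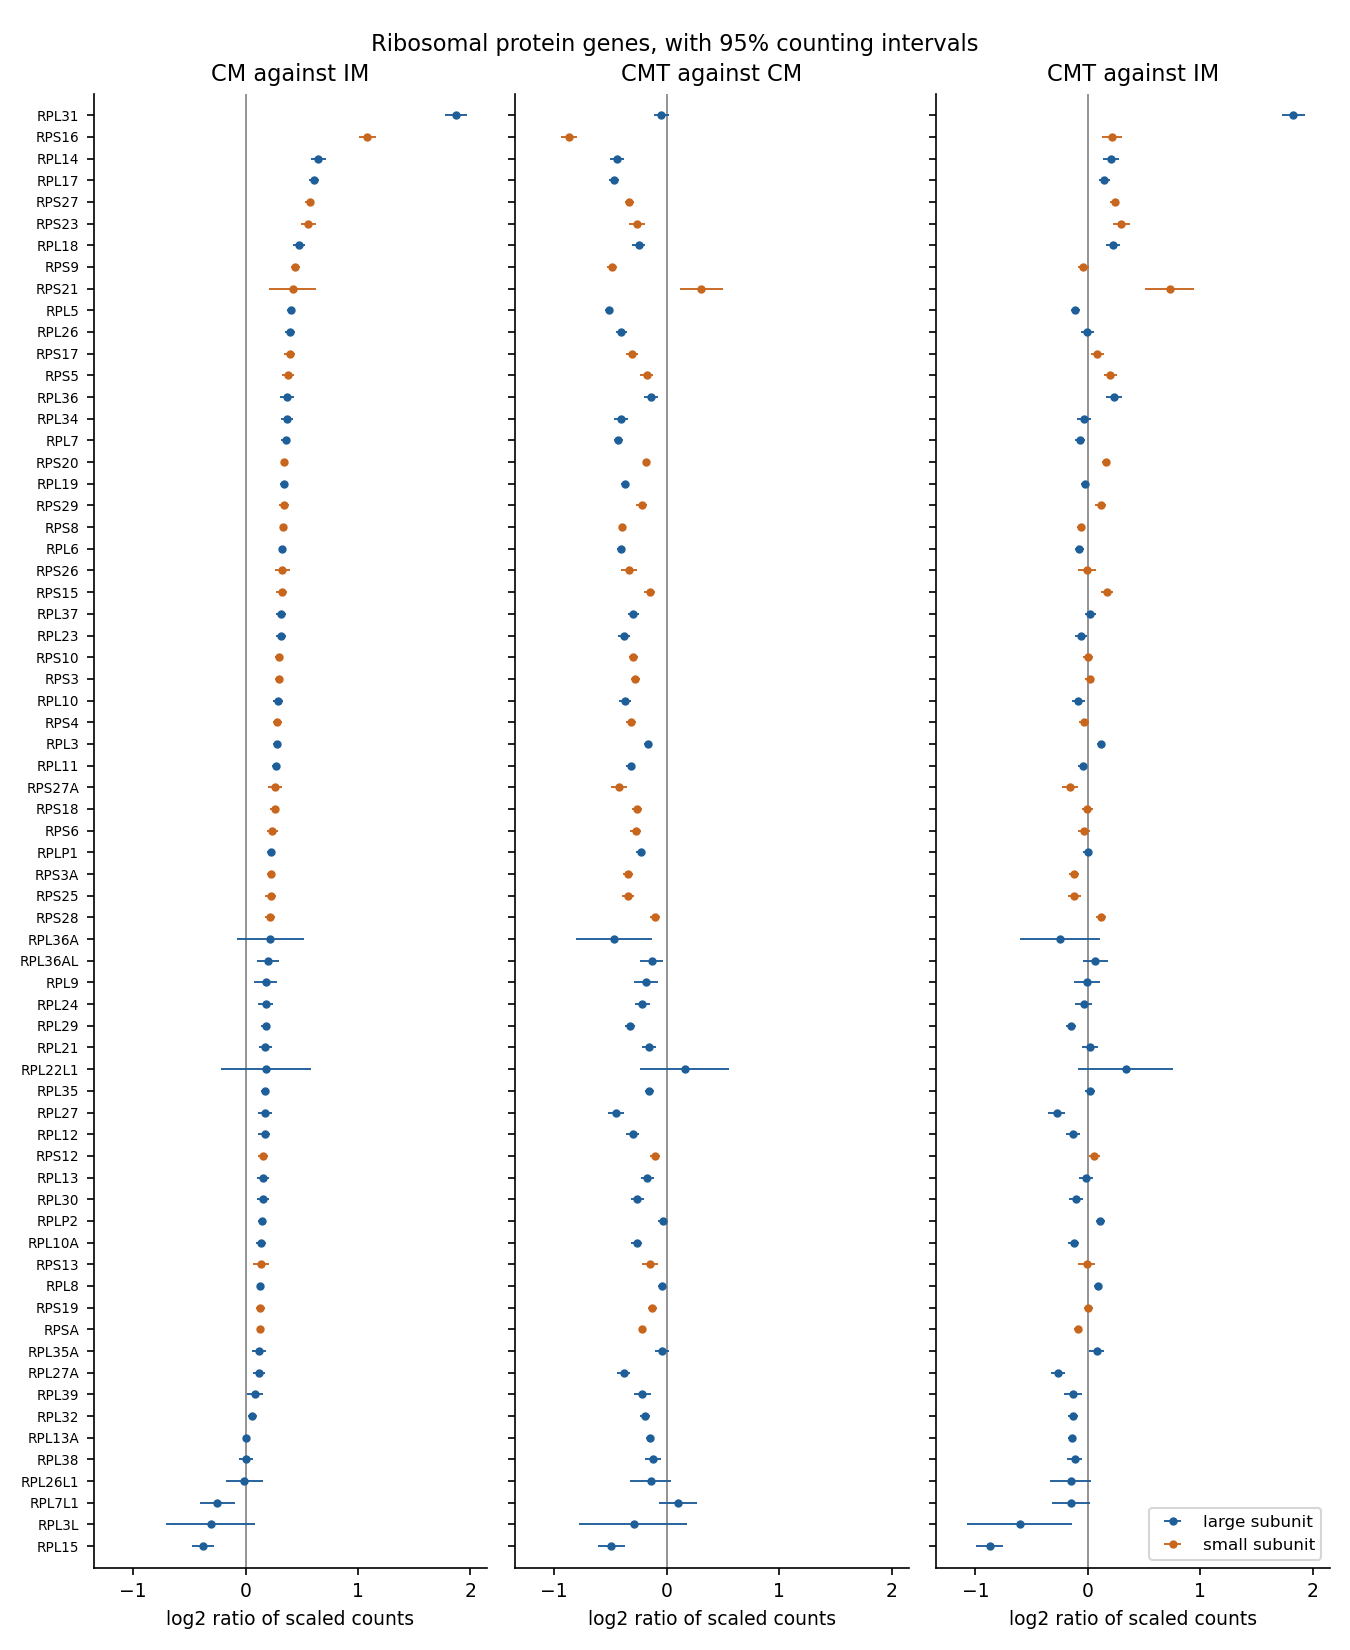
Log2 ratio of scaled counts of the ribosomal protein genes, apart from a few not shown, for CM against IM, CMT against CM and CMT against IM, with large subunit genes in blue and small subunit genes in orange. Lines are exact 95% counting intervals and genes are ordered by the first panel. Most points lie to the right of 0 in the first panel, to the left in the second and on both sides in the third. RPL31, RPL15 and RPS21 lie farthest from 0 in the third.

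The 2 subunits were compared next. All 26 small subunit members had a log2 fold above 0 in CM against IM, with a median of 0.30 and a range of 0.13 to 1.08. Of the 43 large subunit members 39 did, with a median of 0.18 and a range of -0.38 to 1.87. All 4 members below 0 (RPL15, RPL3L, RPL7L1 and RPL26L1) belong to the large subunit, and 3 of them are paralogues of a standard member. Ratios above 1.2 were found for 15 of 26 small and 17 of 43 large subunit members. In CMT against CM the medians of the subunits lay close together, at -0.27 for the small and -0.26 for the large subunit. In CMT against IM they were 0.01 and -0.04. The balance of counts between the subunits does not depend on library scaling. Large subunit members held 54.0% of all member counts in CMT (53.84 to 54.15), 54.2% in CM (54.05 to 54.3) and 54.8% in IM (54.64 to 54.92). Over these 69 members, CMT and CM were both below IM in the large subunit share, by less than 1 percentage point. Their intervals did not reach that of IM. The summed ratio of CM to IM was 1.198 (1.192 to 1.205) for the large and 1.228 (1.221 to 1.235) for the small subunit. Neither the shares nor these ratios include the ribosomal protein rows that the symbol rule missed, described below. Among those, RPL23A had a ratio of CM to IM of 2.13 and RPS7 one of 1.04. The small difference between the subunits may therefore depend on which rows are summed.

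Groups of members defined by their place in the ribosome showed much the same. Around the peptide exit of the large subunit, where chaperones and the signal recognition particle dock, 6 members were in the set, and all 6 were above 0 in CM against IM, with a median log2 fold of 0.37. Of these RPL31, RPL17, RPL26 and RPL19 had ratios above 1.2, while RPL35 and RPL39 stood at 1.13 (1.098 to 1.16) and 1.06 (1.01 to 1.11). The stalk proteins recruit elongation factors. RPLP1 had 616 scaled CPM in CMT, 723 in CM and 617 in IM, RPLP2 had 695, 713 and 644 in the same order, and RPL12 of the stalk base had 280, 345 and 307. All 3 were highest in CM, with ratios of CM to IM from 1.11 to 1.17. RPL5 and RPL11 form a particle with the 5S ribosomal RNA, and when ribosome assembly is disturbed this particle binds MDM2 and so stabilises p53. RPL11 had 578 scaled CPM in CMT, 721 in CM and 598 in IM, and its ratio of CM to IM was 1.21 (1.18 to 1.24), beside 1.32 (1.29 to 1.35) for RPL5.

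In the head of the small subunit, which holds the tRNA and mRNA in place, all 14 members were above 0 in CM against IM, with a median log2 fold of 0.30, and all 14 were below 0 in CMT against CM, with a median of -0.24. RPS6, which is not among these 14, is the classic substrate of S6 kinase. This gene had 411 scaled CPM in CMT, 497 in CM and 421 in IM. Its ratio was 1.18 (1.14 to 1.22) for CM to IM and 0.827 (0.7998 to 0.8553) for CMT to CM. RPS27A, which is made as a fusion with ubiquitin, had 186 in CMT, 249 in CM and 207 in IM. RPS19, the gene most often mutated in the human disorder Diamond-Blackfan anaemia, had 646 in CMT, 707 in CM and 645 in IM, with a ratio of CM to IM of 1.096 (1.07 to 1.12). Of the 16 members mutated in that disorder, 15 were above 0 in CM against IM and 16 were below 0 in CMT against CM. RPL15 was the exception in the first.

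A few members departed from the common pattern of the set, in the order of the libraries or in the size of the difference. RPL31 had 2985 counts in CMT, 4413 in CM and 1055 in IM, or 226, 234 and 63.7 scaled CPM. The IM library stood alone here, and the CMT and CM libraries were alike. RPL31 rose to 3.66 times the IM level in CM (3.425 to 3.922) and to 3.54 times in CMT (3.298 to 3.8), while the ratio of CMT to CM was 0.966 (0.922 to 1.01). As a share of all member counts, which needs no scaling, RPL31 made up 0.789% in CMT, 0.679% in CM and 0.225% in IM. RPS16, whose tail reaches the tRNA in the ribosome, had 156 scaled CPM in CMT, 285 in CM and 134 in IM. It rose to 2.12 times the IM level in CM (2.017 to 2.228), and its share of member counts was 0.546% in CMT, 0.827% in CM and 0.473% in IM. Its call did not hold in libraries thinned to equal depth, where the log2 fold of CM against IM was 1.07. CM was the highest library in this gene, as in 63 of the 69 members, against 35.8% of all genes compared. RPS16 thus departed in size only.

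RPL15, a large subunit protein, ran the other way. It had 811 counts in CMT, 1629 in CM and 1856 in IM, or 61.3, 86.2 and 112 scaled CPM. CMT was the lowest library and IM the highest, with a ratio of 0.769 (0.719 to 0.822) for CM to IM and 0.547 (0.503 to 0.594) for CMT to IM. RPS21 had 31.3 scaled CPM in CMT, 25.3 in CM and 18.9 in IM. Its order was the reverse of that of RPL15, with a ratio of CMT to IM of 1.66 (1.43 to 1.92). Neither gene passed the 2-fold rule in any comparison. How far reads of near-identical copies enter the values of these 4 genes was not tested.

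**Figure D3:**
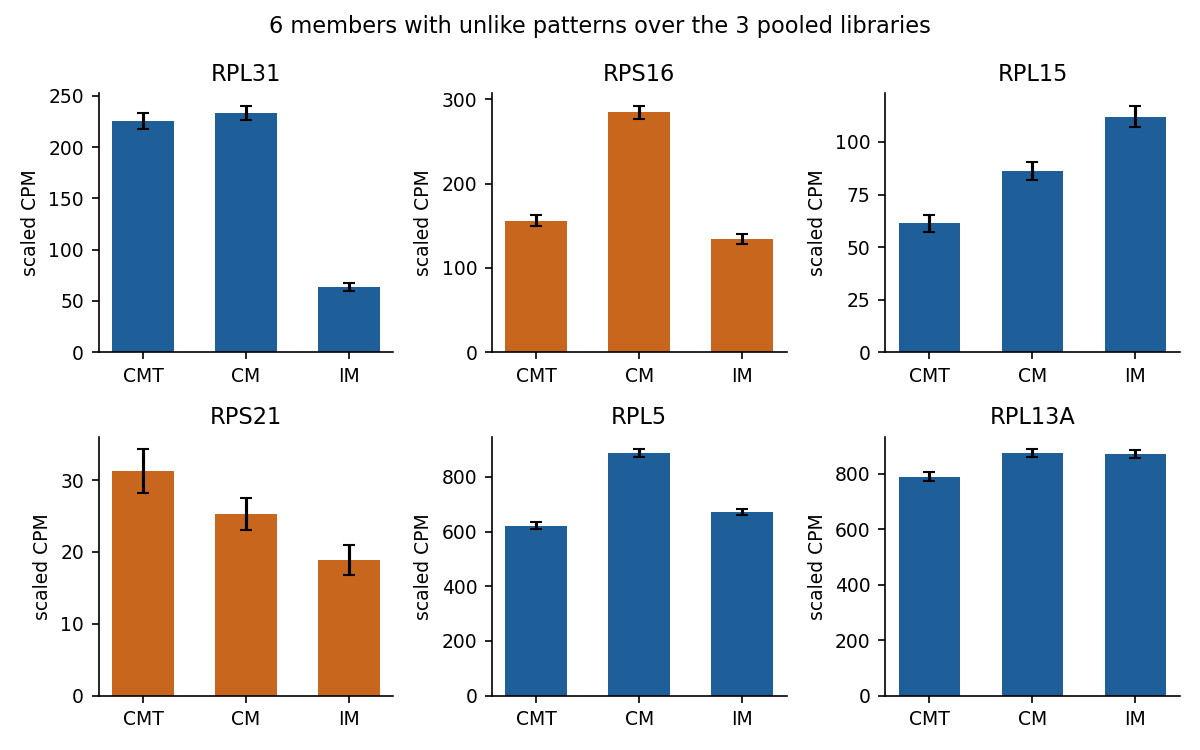
Scaled CPM of 6 genes in CMT, CM and IM, on axes that start at 0, with bars for approximate 95% counting error; blue is the large and orange the small subunit. The 6 genes were picked after their values were seen: RPL31 is low only in IM among the 3 libraries, RPS16 and RPL5 are highest in CM, RPL15 is lowest in CMT, RPS21 is lowest in IM, and RPL13A differs little.

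Several members are paralogues of a standard ribosomal protein, and in CM against IM some lay apart from their partners. RPL7 had 535 scaled CPM in CMT, 720 in CM and 562 in IM, and its ratio of CM to IM was 1.28 (1.248 to 1.315). RPL7L1, the RPL7-like protein, had 38.4, 35.8 and 42.6 in the same order, with a ratio of CM to IM of 0.840 (0.755 to 0.935). RPL26 stood at 1.32 (1.27 to 1.36) and its near copy RPL26L1 at 0.993 (0.887 to 1.11). RPL3 stood at 1.21 (1.19 to 1.24) and RPL3L, the form known from heart and skeletal muscle, at 0.807 (0.613 to 1.06) on 105 counts in CM and 114 in IM. In these 3 pairs the intervals of the partners did not overlap. RPL36A and RPL36AL did not part in this way, with 1.17 (0.949 to 1.44) and 1.15 (1.07 to 1.23). RPS27L, which the symbol rule left out, had 33.7 scaled CPM in CMT, 27.1 in CM and 37.1 in IM. Its ratio of CM to IM was 0.729 (0.647 to 0.821), against 1.48 for its partner RPS27.

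The symbol rule missed rows that carry a numbered identifier or another name. RefSeq's gene list for Sscrofa11.1 pairs 8 such rows with RPL4, RPL10L, RPL22, RPL23A, RPLP0, RPS7, RPS15A and RPS24. RPL23A, another protein at the peptide exit, had 103 scaled CPM in CMT, 185 in CM and 86.9 in IM. Its ratio of CM to IM was 2.13 (2.005 to 2.27), past the 2-fold rule, and its order of libraries was that of RPS16. RPLP0, the base of the stalk, had 484 in CMT, 642 in CM and 507 in IM, with a ratio of CM to IM of 1.27 (1.23 to 1.3). RPL4, which lines the peptide tunnel, had 874, 1083 and 883 in the same order, a ratio of 1.23 (1.201 to 1.253). RPL22 had 72.2 in CMT, 96.5 in CM and 77.1 in IM, a ratio of 1.25 (1.17 to 1.35), while its paralogue RPL22L1 had a ratio of 1.13 (0.8597 to 1.49). RPS7 was the lowest of the 8 at 1.04 (1.02 to 1.06). With these rows added the median log2 fold of CM against IM was 0.26. A row named RPS2E, not taken by the rule, had 2480 scaled CPM in CMT, 2443 in CM and 2572 in IM, a ratio of CM to IM of 0.950 (0.937 to 0.962). A second row for RPL18 gave 1.03 (0.9789 to 1.085), beside 1.39 (1.337 to 1.445) for the row named RPL18, so that 2 rows for 1 protein did not share a ratio.

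Ribosomal components with other names were looked at beside the set. GNB2L1, now called RACK1 and bound to the head of the small subunit as a scaffold for kinases, had 924 scaled CPM in CMT, 1086 in CM and 900 in IM. FAU, which codes for a small subunit protein fused to a ubiquitin-like one, had 398 in CMT, 459 in CM and 360 in IM. Both were highest in CM, with ratios of CM to IM of 1.21 (1.18 to 1.23) and 1.27 (1.23 to 1.32).

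Other mRNAs known from earlier work to begin with an oligopyrimidine tract showed nearly the same values as the ribosomal proteins. The tract itself was not looked for in pig sequences. The list held 21 compared genes, among them GNB2L1 and FAU, and no member of the set. All 21 had a log2 fold above 0 in CM against IM, with a median of 0.27 and a range of 0.07 to 0.53, and 12 had a ratio above 1.2. In CMT against CM 20 of 21 were below 0, with a median of -0.27, and in CMT against IM the median was 0.04. EEF1A1, which brings tRNAs to the ribosome, had 6552 scaled CPM in CMT, 7939 in CM and 6028 in IM, with a ratio of CM to IM of 1.32 (1.306 to 1.33). EEF2, which moves the ribosome along the mRNA, had 2758 in CMT, 3325 in CM and 2619 in IM, a ratio of 1.27 (1.25 to 1.29). PABPC1, the poly(A)-binding protein, and NPM1, a nucleolar chaperone, stood at 1.17 (1.13 to 1.21) and 1.13 (1.08 to 1.19). HNRNPA1, an RNA-binding protein, was the 1 gene of the list above 0 in CMT against CM, at a ratio of 1.02. None of the 21 was called in any comparison.

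Translation factors and related genes outside that list had medians below 0 in CM against IM. Some single genes still had ratios like those of the ribosomal proteins. The initiation factor list, of 47 compared genes, also holds regulators and genes of like name. Examples are the kinase EIF2AK1, the repressor EIF4EBP1 and the Argonaute gene EIF2C1, so its values are not those of initiation factors alone. Its 5 genes in the oligopyrimidine list had a median log2 fold of 0.27 in CM against IM. The 42 others had -0.05, with 15 of 42 above 0 and 3 at a ratio above 1.2. Of these 3, EIF3G and EIF3K are subunits of the initiation factor eIF3, which holds the small subunit ready for mRNA. EIF3G had 258 scaled CPM in CMT, 329 in CM and 264 in IM, with ratios of 1.247 (1.2 to 1.297) for CM to IM and 0.784 (0.752 to 0.818) for CMT to CM. EIF3K had 255 in CMT, 305 in CM and 242 in IM, with ratios of 1.258 (1.209 to 1.311) and 0.838 (0.8025 to 0.874). The other was EIF2S2, which had 48 counts in CM and 11 in IM. Of the 11 genes listed for elongation and termination, the 5 in the oligopyrimidine list had a median of 0.34. The 6 others had -0.16, with 0 of 6 above 0. Among these 6 are EEF2K, a kinase that inhibits EEF2, and EEF1E1, a protein of the tRNA synthetase complex. EIF5A is among them too and was also counted in the initiation list. The split by the oligopyrimidine list was made after the values were seen. In the full list of initiation factors 1 gene was called, EIF2S2, a subunit of the factor that delivers the first tRNA, higher in CMT than in IM on 77 counts in CMT and 11 in IM. Of the elongation and termination factors, 0 were called in any comparison.

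Genes that build or control ribosomes had medians near 0 in CM against IM. In CM against IM, 56 ribosome biogenesis factors had a median log2 fold of 0.02, with 31 above 0 and 0 called. In CMT against CM their median was -0.09, with 20 of 56 above 0, against 49.3% of all genes. There 14 had a ratio below the inverse of 1.2 and 3 one above 1.2, against 23% and 21.9% of all genes. In CMT against IM their median was -0.11, with 19 of 56 above 0, against 48.2% of all genes. NCL, the nucleolar protein nucleolin, was called lower in CMT than in CM, on 115 counts in CMT and 412 in CM. The 27 genes listed around mTORC1 and S6 kinase had a median of -0.06 in CM against IM and 0.02 in CMT against CM. In either comparison 0 were called. The list is broad and also holds RICTOR, a subunit of mTORC2, and RPS6KA1, RPS6KA2 and RPS6KA3, kinases of the ERK pathway. MTOR, the kinase itself, had 106 scaled CPM in CMT, 91.2 in CM and 103 in IM, and LARP1 had 76.4, 67.3 and 68.7 in the same order. SESN2, a stress-induced inhibitor of mTORC1, had 97.0 in CMT, 146 in CM and 89.1 in IM, a ratio of CM to IM of 1.64 (1.54 to 1.75). It was not named by the rule and was picked out after its value was seen. The 19 cytosolic aminoacyl-tRNA synthetases, which load tRNAs, had medians of -0.01 and 0.02 in CM against IM and CMT against CM. The 14 nascent chain and signal recognition particle factors, which meet the peptide at the exit, had medians of -0.02 and 0.07. Their member SRP14, of the signal recognition particle, was called lower in CMT than in CM and than in IM, on 84 counts in CMT, 323 in CM and 312 in IM.

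Other large complexes made of many small proteins were set beside the cytosolic ribosome. The 69 mitochondrial ribosomal protein genes, whose products translate the mitochondrial genome, had a median log2 fold of -0.03 in CM against IM, with 27 above 0 and 0 with a ratio above 1.2. The 64 nuclear genes of oxidative phosphorylation had a median of -0.06, with 24 above 0, and the 33 proteasome genes a median of 0.00, with 19 above 0. In CMT against CM these 3 lists had medians of 0.01, 0.03 and -0.01. The only gene called among them was ATP5J2, a subunit of ATP synthase, lower in CMT than in CM on 795 counts in CMT and 2984 in CM.

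**Figure D4:**
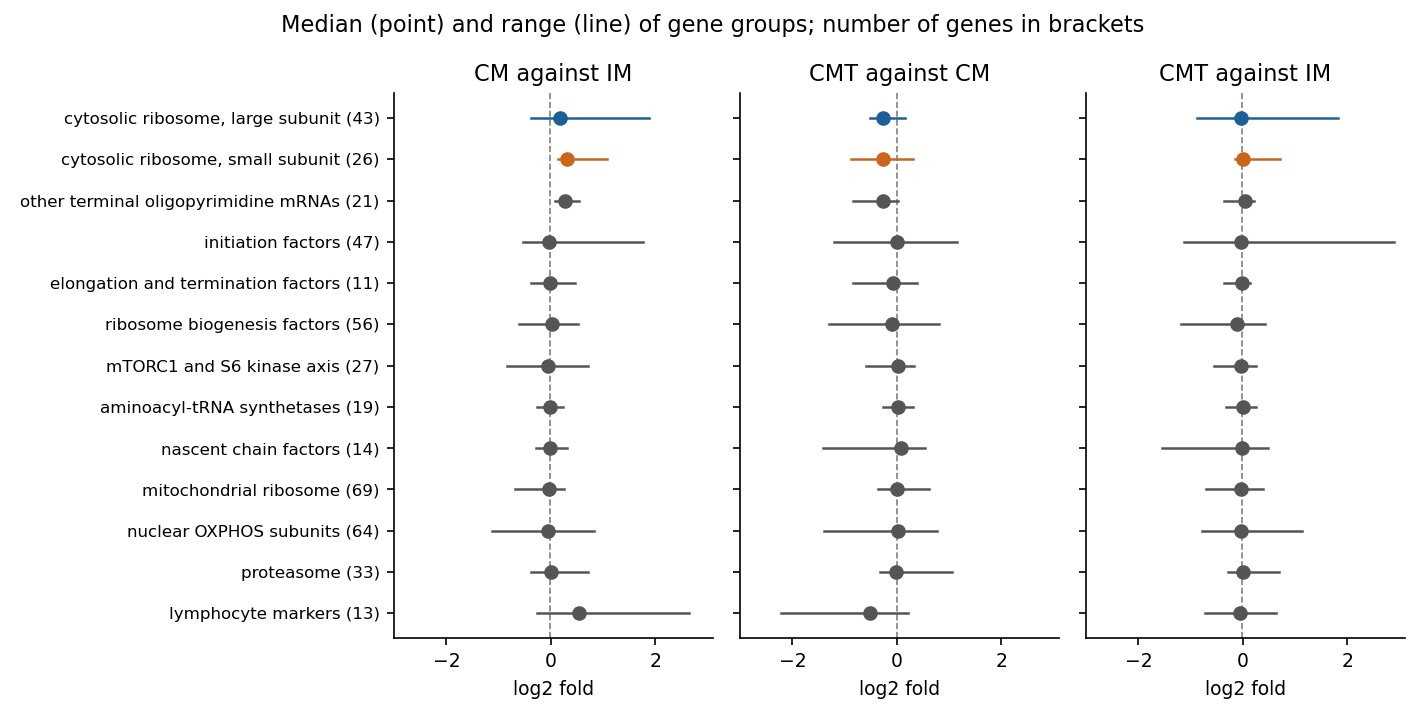
Median (point) and range from lowest to highest gene (line) of the log2 fold in each gene group for the 3 comparisons, with the number of compared genes in brackets and a dashed line at the median of all genes compared. Both subunits of the cytosolic ribosome and the other oligopyrimidine mRNAs lie right of the dashed line in CM against IM and left of it in CMT against CM, as do the lymphocyte markers, while the medians of the other groups lie between -0.11 and 0.07 in all 3 panels.

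Other genes of like abundance had medians near 0. Of the 69 members 56 had a mean between 100 and 1000 scaled CPM. The 1572 other genes in that range had a median log2 fold of -0.02 in CM against IM, with 45.3% above 0 and 12.7% at a ratio above 1.2. In CMT against CM their median was 0.04, with 11.3% below the inverse of 1.2.

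Markers of lymphocytes moved with the ribosomal protein genes. Such cells are rich in ribosomes when they make antibody. Their 15 markers in the table summed to 80.69 scaled CPM in CMT, 194.8 in CM and 76.95 in IM. Of the 13 compared, 11 were above 0 in CM against IM and 2 were in CMT against CM, with median log2 folds of 0.53 and -0.51. The antibody joining chain IGJ alone had 21.8 scaled CPM in CMT, 102 in CM and 16.1 in IM. PTPRC, carried by all leukocytes, had 13.15, 17.93 and 13.59 in the same order. CD3E, of the T-cell receptor, had 5.515, 4.761 and 5.375, and the B-cell gene MS4A1 had 4 counts in CMT, 15 in CM and 15 in IM, so that not every marker was highest in CM. No listed marker in the table was at 0 in all libraries. In RNA of whole tissue, a change in the share of a cell type and a change of RNA per cell cannot be told apart, and the part of lymphocytes in the ribosomal protein difference was not tested. The share of ribosomal RNA counts was lowest in CM as well, and its part was not tested either. The 7 markers of the distal tubule and collecting duct also summed highest in CM, with 984 scaled CPM in CMT, 1261 in CM and 1029 in IM, though only 3 of them were above 0 in CM against IM; their part was not tested. CM was not the highest library for the summed macrophage, loop of Henle, podocyte, endothelial, stromal and erythroid markers. The 6 macrophage markers, for example, summed to 72.15 in CMT, 69.78 in CM and 51.94 in IM. Even so, most compared markers of some of these types were above 0 in CM against IM. Macrophages had 4 of 6, the loop of Henle 3 of 3, podocytes 5 of 5 and erythroid cells 2 of 2. The proximal tubule had 8 of 11, while stromal cells had 1 of 6 and endothelial cells 0 of 4. The part of these cell types was not tested.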

How the data were processed

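The authors deposited unnormalized whole-number counts by gene, in 1 column for each of the CMT, CM and IM libraries. Per the labels' protocols, equal amounts of TRIzol RNA of 3 pigs made up each pool, and an Ion Torrent kit turned it into a library. The design text names an Illumina sequencer and triplicates instead, which was not settled. FastQC is the only tool in the submitters' processing notes. The aligner, counter, strand setting, build and annotation are not given in the sources used here. No coordinates or sequences are therefore printed. Effective library sizes came from TMM in edgeR 4.0.16 (R 4.3.3), with factors of 0.973, 1.02 and 1.01 for CMT, CM and IM; with 1 library per group its tests could not be run. Genes with a mean of at least 1 scaled CPM were compared. Log2 folds used a prior count of 2. Intervals are Clopper-Pearson at 95% (scipy 1.17.1) and cover counting error only, since reads without molecular identifiers are not independent molecules. The interval and call were tried only on simulated Poisson counts, the model that the interval assumes. The simulation held no differences between pigs, pools or library preparations, so it says nothing about the calls under such differences. Alternatives were total counts, DESeq2 1.42.0 size factors, upper-quartile and 2 other TMM scalings, other filters, thinning, other priors, other members and other call rules. The members, lists and alternatives were chosen with earlier results of these data known. The rule for named genes took called members, the 5 highest and 5 lowest in the first 2 comparisons, the 3 with most counts per subunit, those on the other side of 0, and a fixed set of members, paralogues and other translation genes; other genes were named after their values were seen. A few genes that the rule took are not reported here.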

Additional observations from a re-analysis of the deposited data

How the results depend on the processing

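No paired analysis was possible because each group has 1 pooled library. For the same reason no library could be left out. Over 13 alternatives in scaling, filter, depth, prior and members, the median log2 fold of the ribosomal protein genes ran from 0.24 to 0.27 in CM against IM, from -0.33 to -0.25 in CMT against CM and from -0.06 to 0.003 in CMT against IM. With total counts, which put the median of all genes at -0.07 in CMT against CM, the medians there were -0.33 for all members, -0.33 for the large and -0.34 for the small subunit, and the small subunit stood at -0.04 in CMT against IM. With the looked-up rows, an alternative chosen after seeing the data, the large minus small difference in CM against IM was -0.08, against -0.12. Thinned to the smallest library, 1 member was called in CM against IM, because RPS16 (log2 fold 1.07) no longer passed. Without the called members, 0 were called there and 0 in CMT against IM. Without paralogue copies, 1 member was above 0 in CMT against CM. A rule of 1.5-fold called 2 members higher and 0 lower when CM was set against IM. Between CMT and CM it called 0 members higher and 1 lower. Between CMT and IM it called 1 member higher and 1 lower. The share of all genes that pass the 1.5-fold rule is not given here, so these counts have no background. A point ratio beyond 1.2 called 32 higher and 2 lower in CM against IM, 1 and 36 in CMT against CM, and 4 and 4 in CMT against IM. The members' share of counts in CMT, CM and IM was 2.76%, 3.49% and 2.84% without paralogue copies, 2.80%, 3.53% and 2.87% with the second RPL18 row, 2.74%, 3.46% and 2.83% without the called members, and 3.08%, 3.91% and 3.18% with the looked-up rows; these settings change which rows are summed. The depth limits RPL3L, RPL22L1 and RPL36A, whose intervals are wide.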
